A study of Homo sapiens with 28 samples.

Results

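The solute carrier (SLC) genes that lie outside the mitochondrial SLC25A family form the subject of this account. They were taken by symbol alone: SLC, a number, the letter A and a further number, without the SLC25A genes and without SLC2A1, SLC2A3 and SLC7A11. The deposited table held 102 symbols of this form, of which 24 were SLC25A genes and 3 were those left out by name. That left 75 of the 7485 genes in the table, and the rule itself reads no measured value. Of these 75, 72 belong to carrier families, though SLC3A2 is a partner chain and SLC27A2 and SLC27A5 are known as enzymes that activate fatty acids. The other 3 bear such a symbol for another reason. SLC4A1AP encodes kanadaptin, a protein named for binding an anion exchanger, and SLC9A3R1 encodes the membrane scaffold NHERF1. SLC7A6OS is a separate gene on the strand opposite SLC7A6.

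Solute carriers are membrane proteins that move amino acids, sugars, ions, metals, nucleosides, vitamins and metabolites across the plasma membrane or the membranes of organelles, by facilitated diffusion or coupled to a gradient. Activated T cells are known to raise the uptake of amino acids, above all through the leucine carrier SLC7A5, which sits in the membrane as a pair with SLC3A2, and through carriers of glutamine. Zinc and iron carriers are known for a further role, since both metals enter signalling and growth in lymphocytes.

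The cells were Jurkat, an established human T cell leukaemia line, and stand in for T cells only as far as a cell line can. They had been activated with 0.5 µg/ml PMA, a phorbol ester that switches on protein kinase C, together with 2 µg/ml PHA, a lectin that binds the T cell receptor, for 1, 2, 3 or 4 h, or were left unactivated. All groups were grown in RPMI1640, and each gave total RNA and RNA labelled with 4-thiouridine, a uridine analogue built into transcripts while they are made, so that the labelled RNA is enriched in new transcripts. The labels do not give how long the label was present. In bulk RNA, fewer cells that make a transcript and less of it per cell cannot be told apart. The 28 samples made 10 groups of 3 samples, or 2 at 1 h in either kind of RNA, and the labels call them biological replicates.

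Levels are the authors' group means with the deposited SD on a normalised scale whose sum per group ran from 913919 to 1037463, and changes are log2 changes ± SE of value + 1 from limma, called where the p-value adjusted by Benjamini-Hochberg over all genes was under 0.05. Total values ran in unactivated cells from 1.78 for SLC16A4 to 497 for SLC38A1, with a member median of 39.9 beside 60.4 over all genes. The median coefficient of variation of the members between samples was 6.72% to 9.62% in total RNA and 11.5% to 13.7% in labelled RNA of activated cells, against 21.7% in labelled RNA of unactivated cells. In total RNA at 1 h, where 2 samples let both values be recovered, the lowest member, SLC16A4, rested on about 22 reads per library and the median member on about 471 reads. Of 13 genes listed as T cell markers, 8 were measured, from CD28 at 28.2 ± 4.05 to PTPRC at 1057 ± 26.6 in total RNA of unactivated cells. No marker of B cells (0 of 5) or erythroid cells (0 of 3) had an entry, while 2 of 5 myeloid markers, AIF1 and VCAN, and 2 of 5 fibroblast markers, VIM and THY1, did. A missing entry is no measurement, so these counts do not test the identity of the line.

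The promoters of 3 genes are shown because these genes mark the directions the carriers took: SLC7A5 rose in both kinds of RNA, SLC30A1, the zinc exporter of the plasma membrane, rose in total RNA and then came down, and SLC40A1, the iron exporter ferroportin, fell in both kinds. Each covers 250 bases before and 50 bases from the RefSeq start site, on build GRCh38.p14 and the minus strand. Capitals mark matches, on either strand, to the E-box CACGTG, the metal response core TGCACNC or TGCGCNC, the AP-1 site TGANTCA and the C/EBP-ATF core TGATGNAA.

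SLC7A5 promoter, chr16:87869458-87869757, minus strand: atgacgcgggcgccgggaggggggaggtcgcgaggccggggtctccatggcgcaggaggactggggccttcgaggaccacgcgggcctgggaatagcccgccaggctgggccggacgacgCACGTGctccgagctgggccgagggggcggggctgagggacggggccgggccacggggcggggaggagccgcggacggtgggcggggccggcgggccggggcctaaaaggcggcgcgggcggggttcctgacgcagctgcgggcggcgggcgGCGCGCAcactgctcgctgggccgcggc
SLC30A1 promoter, chr1:211579112-211579411, minus strand: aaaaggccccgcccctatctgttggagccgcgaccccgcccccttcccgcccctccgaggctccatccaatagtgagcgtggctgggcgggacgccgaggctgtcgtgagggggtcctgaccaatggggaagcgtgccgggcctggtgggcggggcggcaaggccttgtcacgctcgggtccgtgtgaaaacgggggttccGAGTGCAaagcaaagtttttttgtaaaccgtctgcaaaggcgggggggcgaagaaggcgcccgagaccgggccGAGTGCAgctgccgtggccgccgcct
SLC40A1 promoter, chr2:189580737-189581036, minus strand: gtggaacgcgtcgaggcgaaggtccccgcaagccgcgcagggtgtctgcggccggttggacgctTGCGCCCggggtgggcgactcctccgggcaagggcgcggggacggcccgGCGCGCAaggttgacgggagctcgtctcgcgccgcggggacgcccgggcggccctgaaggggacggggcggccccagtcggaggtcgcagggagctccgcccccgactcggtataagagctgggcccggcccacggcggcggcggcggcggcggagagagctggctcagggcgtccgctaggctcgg

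In the SLC7A5 promoter the E-box began at position -130, counted from the start site as 0, and a metal response core at position 22. SLC30A1 held the metal response core at positions -49 and 24, and SLC40A1 at positions -186 and -137. No motif overlapped another in these windows. RefSeq promoters were found for 65 of the 75 members. The E-box stood in 8 of these 65 (12.3%), against 7.43% of all 27305 promoters of that length, and the metal response core in 20 of 65 (30.8%), against 29.3%. For AP-1 the counts were 2 of 65 (3.08%), against 7.76%, and for the C/EBP-ATF core 4 of 65 (6.15%), against 3.67%. A match is a run of letters and says nothing of binding.

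The first question was which carriers had changed in the whole RNA pool by the end of the 4 h. At 4 h, 22 members were higher and 10 lower than in unactivated cells, beside 21.4% higher and 14.5% lower among all genes tested. The shares of members called were near the background, and members moved in both directions. No member was called at 1 h by limma, nor under any of the 8 alternative settings, beside 0.788% of all genes higher and 0.147% lower. No member reached an unadjusted limma p under 0.05 there either. Of all 7485 genes, 524 did so as higher and 101 as lower. At 2 h, 11 were higher and 4 lower (background 9.71% and 3.58%), and at 3 h 20 were higher and 9 lower (background 18.9% and 10.9%). Of the 20 members higher at 3 h, 16 were among the 22 higher at 4 h, while 4 of the 9 lower at 3 h were among the 10 lower at 4 h. The split depended on scaling: with the groups centred on their median there were 7 higher and 5 lower at 2 h, 17 and 14 at 3 h, and 18 and 13 at 4 h, and after quantile normalisation 19 and 13 at 4 h.

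**Figure D1:**
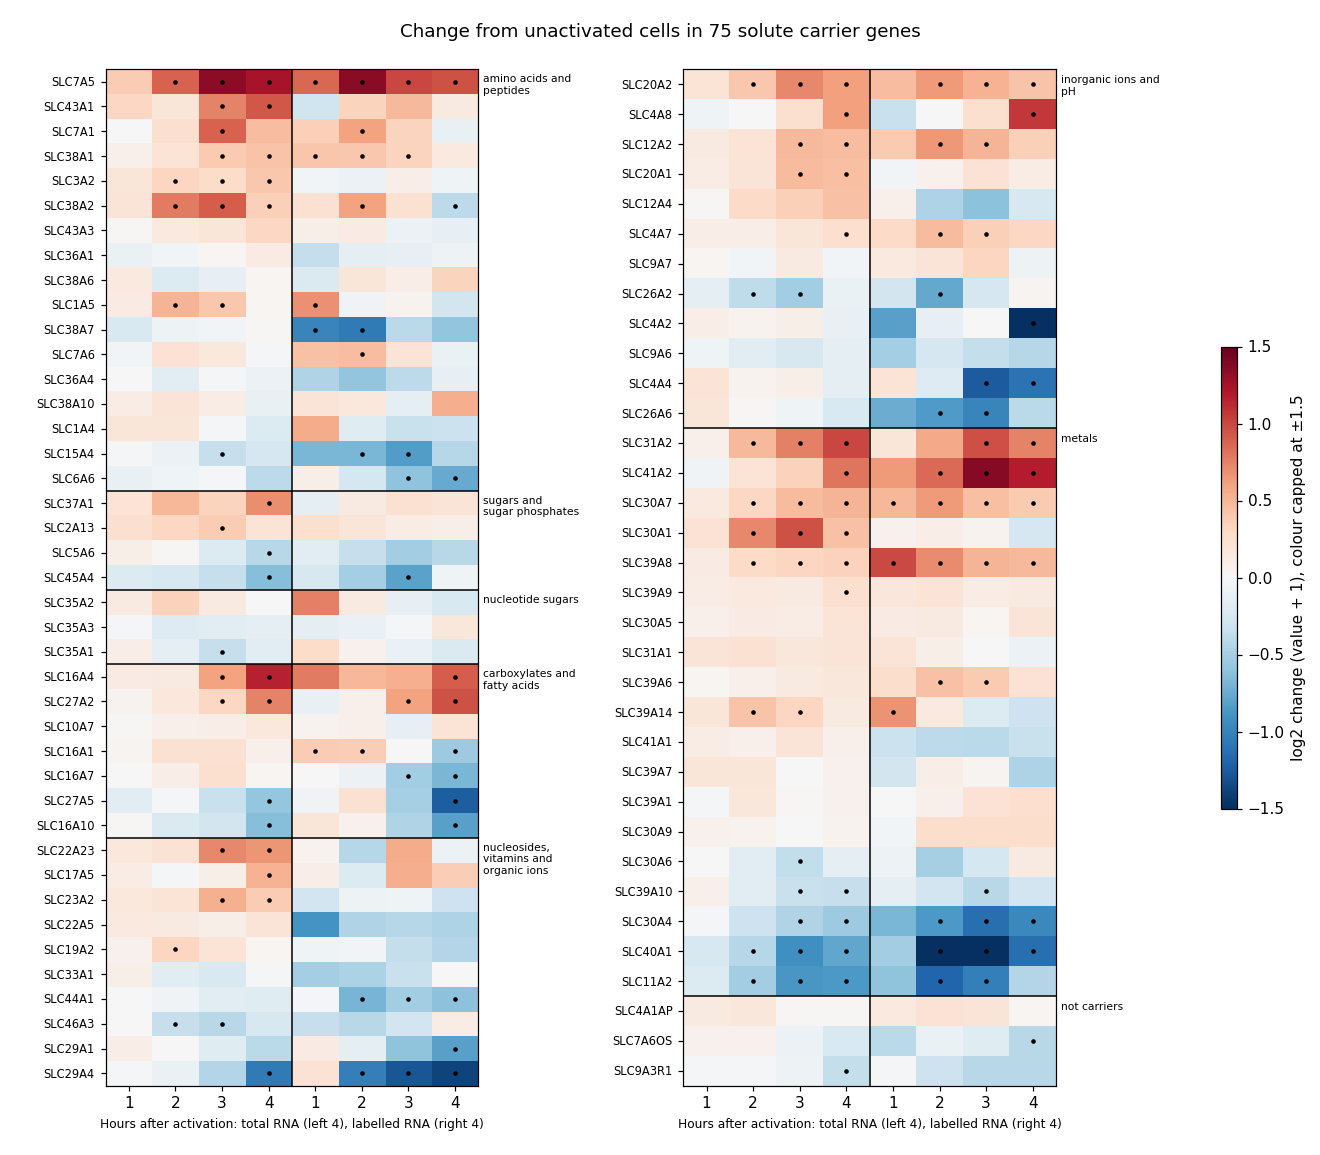
Log2 change of all 75 members from unactivated cells, with total RNA in the left 4 columns and labelled RNA in the right 4 columns of each panel, at 1, 2, 3 and 4 h. Rows are grouped by transport class, red is higher and blue lower than in unactivated cells, the colour is capped at 1.5, and a dot marks an adjusted p under 0.05. Dots gather in SLC7A5, SLC39A8 and SLC30A7 on the red side and in SLC40A1, SLC11A2 and SLC30A4 on the blue side.

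Of the 17 genes in the amino acid and peptide families, classed by family number, 7 were higher (41.2%) and 1 lower (5.88%) at 3 h. The background there was 18.9% and 10.9% of all genes. At 4 h 5 were higher (29.4%) and none lower, beside 21.4% and 14.5% of all genes. SLC16A10, an aromatic amino acid carrier of another family, was lower at 4 h (-0.64 ± 0.11). SLC7A5, the carrier of leucine and other large neutral amino acids, averaged 78.5 ± 12.7 in total RNA at 4 h and 32.7 ± 2.81 in unactivated cells. That was a log2 change of 1.24 ± 0.17 (adjusted p 1.9e-05), the largest log2 change of any member at 4 h with a pseudocount of 1, though with 0.5 SLC16A4 stood above it (1.32, against 1.25 for SLC7A5). SLC7A5 was also called at 2 h (0.89 ± 0.17) and 3 h (1.34 ± 0.17). Its partner SLC3A2, the heavy chain of CD98, rose less, to 156 ± 10.9 at 4 h against 118 ± 9.79 in unactivated cells (0.40 ± 0.10, adjusted p 0.0051). SLC43A1, another carrier of large neutral amino acids, rose as well, with 12.3 ± 1.40 at 4 h against 5.99 ± 0.587 in unactivated cells (0.93 ± 0.16). Values of SLC7A5 are uncertain in that it has the annotated pseudogenes SLC7A5P1 and SLC7A5P2, as SLC16A1, SLC20A1, SLC29A4, SLC2A13, SLC31A1, SLC4A1AP, SLC6A6 and SLC9A7 have theirs, and neither labels nor headers tell how shared reads were counted.

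The carriers of glutamine and small neutral amino acids took different courses. SLC38A1, a sodium-coupled glutamine carrier and the member with the highest total value, had 497 ± 21.6 in unactivated cells, 525 ± 39.9 at 1 h, 575 ± 3.74 at 2 h, 652 ± 23.6 at 3 h and 668 ± 46.5 at 4 h, and was called higher at 3 h and at 4 h (0.43 ± 0.08 at 4 h, adjusted p 0.00034). SLC38A2, a relative known to rise when cells run short of amino acids, had 199 ± 8.16 in unactivated cells, 228 ± 30.3 at 1 h, 341 ± 18.2 at 2 h, 374 ± 9.18 at 3 h and 255 ± 35.1 at 4 h. SLC1A5, the exchanger ASCT2 that takes up glutamine, had 74.7 ± 5.16, 81.8 ± 9, 107 ± 4.34, 99.4 ± 7.48 and 76.2 ± 8.37 over the same times. Both SLC38A2 and SLC1A5 were thus highest in the middle of the course. SLC1A5 was called at 2 h (0.51 ± 0.10) and 3 h (0.41 ± 0.10) and not at 4 h (0.03 ± 0.10), and SLC38A2 at all of 2, 3 and 4 h, with 0.91 ± 0.10 at 3 h and 0.36 ± 0.10 at 4 h.

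For the cationic amino acid carrier SLC7A1, which brings in arginine and lysine, total RNA averaged 163 ± 68.9 at 3 h against 87.9 ± 10.8 in unactivated cells (0.88 ± 0.20, adjusted p 0.0038). The deposited SD at 3 h was the largest of this gene over the 5 times, and at 4 h, with 122 ± 13.8, the change of 0.47 ± 0.20 was not called. It was called at 4 h when the variance came from the compared groups alone. SLC7A6, an exchanger that also pairs with SLC3A2, was not called in total RNA at any hour and had 52.5 ± 1.02 at 4 h and 53.3 ± 7.08 in unactivated cells. SLC7A6 and SLC7A6OS overlap on opposite strands, and without a stated strand of counting their reads cannot be told apart. SLC15A4, a lysosomal carrier of histidine and peptides, was the 1 gene of these families called lower, at 3 h (-0.35 ± 0.11).

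Metal carriers moved in both directions. At 4 h 6 of 19 were higher (31.6%) and 4 lower (21.1%), beside 21.4% and 14.5% of all genes. At 3 h 5 were higher and 5 lower (26.3% each), beside 18.9% and 10.9% of all genes. SLC40A1 and SLC11A2, both known above all for iron, fell. SLC40A1, which releases iron from cells, had 47.2 ± 4.21 at 4 h and 81.8 ± 7.26 in unactivated cells, a change of -0.78 ± 0.10 (adjusted p 6.2e-06), and SLC11A2, the carrier DMT1 that brings ferrous iron in, had 21.7 ± 0.613 and 40.4 ± 0.798, a change of -0.86 ± 0.10 (adjusted p 1.1e-06). Both were called lower at 2, 3 and 4 h, and the SD ranges of 4 h and unactivated cells did not overlap in either.

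Among zinc carriers the exporters and importers did not separate by direction. SLC30A1, which exports zinc at the plasma membrane, had 39.9 ± 0.728 in unactivated cells, 46.6 ± 10.9 at 1 h, 66.6 ± 2.42 at 2 h, 78.1 ± 14.6 at 3 h and 54.5 ± 5.20 at 4 h. It was called higher at 2 h (0.72 ± 0.13), 3 h (0.95 ± 0.13) and 4 h (0.44 ± 0.13), though not at 4 h on the linear scale. This rise was in total RNA, and the log2 ratio of labelled to total RNA of SLC30A1 had changed by -0.90 at 3 h. SLC30A7, which loads zinc into the Golgi, averaged 204 ± 9.57 at 4 h and 143 ± 3.51 in unactivated cells (0.51 ± 0.08), whereas SLC30A4, a zinc carrier of endosomal vesicles, averaged 19.0 ± 1.55 and 28.1 ± 2.27 (-0.54 ± 0.12). SLC39A8 and SLC39A14 are known to carry iron besides zinc, and neither was called lower in total RNA at any hour. The importer SLC39A8 rose to 309 ± 5.96 at 4 h, against 243 ± 8.02 in unactivated cells (0.35 ± 0.07), and the importer SLC39A10 fell to 73.9 ± 4.32, against 94.1 ± 5.87 (-0.34 ± 0.08). SLC39A14, a close relative of SLC39A8, was higher at 2 h (0.43 ± 0.08) and 3 h (0.32 ± 0.08) and not called at 4 h (0.13 ± 0.08). SLC30A9, also of the zinc exporter family and among the members with the highest RPKM, stayed uncalled throughout, with 278 ± 11 at 4 h and 268 ± 18.7 in unactivated cells.

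The other metal carriers called at 4 h included the low-level SLC31A2 and SLC41A2. SLC31A2, a copper carrier of endosomes, had 12.3 ± 1.09 in unactivated cells, 13.0 ± 1.36 at 1 h, 17.6 ± 1.14 at 2 h, 21.5 ± 0.769 at 3 h and 25.7 ± 2.29 at 4 h (1.01 ± 0.12 at 4 h, adjusted p 1.7e-06). SLC41A2, a magnesium carrier, had 22.6 ± 0.331 at 4 h against 12.6 ± 2.01 in unactivated cells (0.80 ± 0.14, adjusted p 0.00024).

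**Figure D2:**
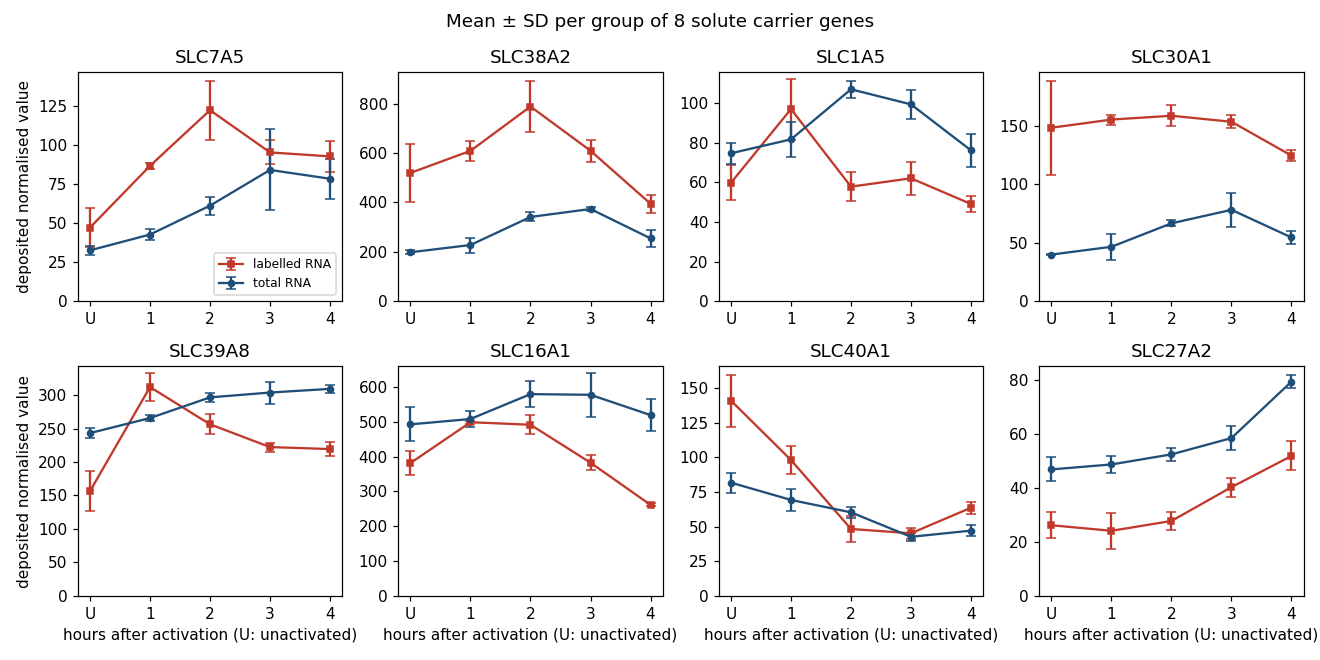
Deposited group means with deposited SD (bars) of 8 members in labelled RNA (red squares) and total RNA (blue circles), in unactivated cells (U) and 1, 2, 3 and 4 h after activation, on linear axes from 0. Labelled RNA of SLC39A8 and SLC1A5 was highest at 1 h and total RNA of SLC1A5 at 2 h, SLC40A1 fell in both kinds of RNA, and SLC27A2 was highest at 4 h in both.

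Ion and pH carriers had 5 of 12 higher and none lower in total RNA at 4 h, beside 21.4% and 14.5% of all genes. Both phosphate importers were among them: SLC20A2 with 51.1 ± 2.09 at 4 h and 32.9 ± 2.14 in unactivated cells (0.62 ± 0.09, adjusted p 3.2e-05), and SLC20A1 with 159 ± 19.8 and 116 ± 2.10 (0.45 ± 0.12, adjusted p 0.0064). The sodium, potassium and chloride cotransporter SLC12A2, which sets cell volume, averaged 158 ± 17.0 at 4 h and 114 ± 4.86 in unactivated cells (0.47 ± 0.10). The bicarbonate carriers SLC4A8 (0.61 ± 0.14) and SLC4A7 (0.25 ± 0.09) completed the group. SLC26A2, a sulphate carrier, was lower at 2 h (-0.38 ± 0.11) and 3 h (-0.52 ± 0.11) and had 55.1 ± 8.86 at 4 h, against 58.9 ± 3.62 in unactivated cells (-0.09 ± 0.11, not called).

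Of 7 carriers of carboxylates and fatty acids, 2 were higher and 2 lower at 4 h, beside 21.4% and 14.5% of all genes. SLC16A4, a monocarboxylate carrier relative with no settled substrate, had 5.21 ± 0.352 at 4 h and 1.78 ± 0.397 in unactivated cells (1.16 ± 0.20, adjusted p 0.00018), and no member was lower in unactivated cells. SLC27A2, which activates very long chain fatty acids, had 79.5 ± 2.43 at 4 h and 46.9 ± 4.44 in unactivated cells (0.75 ± 0.09, adjusted p 4.1e-06). Its relative SLC27A5, known for bile acids in liver, fell to 10.6 ± 1.36, against 16.3 ± 1.10 (-0.59 ± 0.16), and the aromatic amino acid carrier SLC16A10 fell to 26.6 ± 2.97, against 41.9 ± 2.03 (-0.64 ± 0.11). The lactate carrier SLC16A1 was abundant, with 519 ± 46.5 at 4 h and 492 ± 49.0 in unactivated cells, and was not called in total RNA at any hour.

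Of 10 carriers of nucleosides, vitamins and organic ions, 3 were higher and 1 lower at 4 h, beside 21.4% and 14.5% of all genes. SLC29A4, a carrier of monoamines, fell to 2.52 ± 0.470 at 4 h against 6.35 ± 1.79 in unactivated cells (-1.06 ± 0.21, adjusted p 0.00045), a size that depends on the pseudocount (-0.59 with 5). The orphan carrier SLC22A23 (0.66 ± 0.20), the ascorbate carrier SLC23A2 (0.38 ± 0.13) and the sialic acid carrier SLC17A5 (0.52 ± 0.19) were higher. SLC29A1, the main nucleoside carrier of many cells, had 41.9 ± 9.12 at 4 h and 56.0 ± 5.96 in unactivated cells and was not called (-0.41 ± 0.18), except with the variance of the compared groups alone. Of 4 genes in the sugar families, the glucose phosphate carrier SLC37A1 was higher at 4 h (0.70 ± 0.18), while SLC45A4 (-0.64 ± 0.14) and SLC5A6 (-0.42 ± 0.10), whose substrates are vitamins and not sugars, were lower. None of the 3 nucleotide sugar carriers was called at 4 h, and of the 3 genes outside carrier families only the scaffold SLC9A3R1 was (-0.36 ± 0.10).

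Between 3 h and 4 h, a comparison chosen after seeing the time courses, 2 members went up and 3 down, beside 2.46% and 2.22% of all genes. SLC38A2 (-0.55 ± 0.10, adjusted p 0.0021), the zinc exporter SLC30A1 (-0.51 ± 0.13, adjusted p 0.026) and SLC1A5 (-0.38 ± 0.10, adjusted p 0.029) were lower at 4 h than at 3 h. SLC27A2 (0.43 ± 0.09, adjusted p 0.011) and SLC26A2 (0.43 ± 0.11, adjusted p 0.03) were higher. These 5 calls rest on a variance pooled over 5 groups. With the variance of the 3 h and 4 h groups alone, 1 member was called in place of 5. Of the 27 members called higher in total RNA at some hour, 14 had their highest activated mean at 4 h, 10 at 3 h and 3 at 2 h.

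Labelled RNA was asked which carriers changed first among newly made transcripts. At 1 h, 7 members were higher and 1 lower than in unactivated cells, beside 4.2% and 2.06% of all genes. SLC39A8, an importer of zinc and manganese, had 312 ± 20.6 at 1 h and 156 ± 30.2 in unactivated cells (0.99 ± 0.15, adjusted p 3.5e-06). SLC7A5 had 86.7 ± 2.15 at 1 h and 47.2 ± 12.6 in unactivated cells (0.86 ± 0.20, adjusted p 0.0034). These 2 were the early rises that every alternative setting kept. The other 5 were SLC1A5 with 97.1 ± 15.4 against 59.9 ± 8.82 (0.69 ± 0.20), SLC39A14 with 244 ± 22.8 against 153 ± 24.2 (0.67 ± 0.16), SLC30A7 (0.49 ± 0.15), SLC38A1 (0.41 ± 0.12) and SLC16A1 (0.39 ± 0.12). SLC38A7, a lysosomal exporter of glutamine, was the member called lower, with 17.0 ± 4.99 at 1 h and 34.7 ± 11.9 in unactivated cells (-0.99 ± 0.29). With the variance of the 2 compared groups alone, 2 members were called in place of 8, and labelled RNA of unactivated cells had the largest spread of all groups.

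From 2 h on, falls joined the rises in labelled RNA. The members higher and lower were 13 and 9 at 2 h (background 12.3% and 9.26%), 11 and 12 at 3 h (13.8% and 11.4%), and 9 and 14 at 4 h (13.7% and 13.8%). Of the 7 higher at 1 h, 3 were among the 9 higher at 4 h. Among the 19 members called higher at some hour, 5 had their highest activated mean at 1 h, 9 at 2 h, 2 at 3 h and 3 at 4 h. SLC40A1 and SLC11A2 fell in labelled RNA too. SLC40A1 had 141 ± 18.7 in unactivated cells, 98.1 ± 9.85 at 1 h, 48.3 ± 9.63 at 2 h, 45.2 ± 3.83 at 3 h and 63.7 ± 4.40 at 4 h. SLC11A2 followed the same times with 103 ± 12.5, 67.6 ± 1.64, 44.5 ± 8.81, 50.1 ± 4.88 and 75.7 ± 6.40, and was no longer called at 4 h (-0.44 ± 0.18).

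At 4 h the magnesium carrier SLC41A2 was among the rises in labelled RNA. It had 23.3 ± 2.67 at 4 h and 9.72 ± 3.36 in unactivated cells (1.18 ± 0.27), and the bicarbonate carrier SLC4A8 had 48.1 ± 4.30 and 22.5 ± 5.25 (1.06 ± 0.24). SLC27A2 (0.96 ± 0.23), SLC7A5 (0.96 ± 0.18), SLC16A4 (0.91 ± 0.34) and SLC31A2 (0.74 ± 0.24) were also higher in new and total RNA alike. The call of SLC16A4 was lost under 4 of the 7 alternative settings that gave it a value. Lower were the anion exchanger SLC4A2, with 8.66 ± 2.19 at 4 h and 29.9 ± 7.66 in unactivated cells (-1.68 ± 0.26, adjusted p 1.7e-06), and the bicarbonate carrier SLC4A4, with 20.8 ± 5.49 and 46.1 ± 10.2 (-1.11 ± 0.24). SLC29A4 (-1.39 ± 0.34), SLC27A5 (-1.23 ± 0.30), SLC40A1 (-1.13 ± 0.18) and SLC30A4 (-0.96 ± 0.27) fell in labelled RNA as they had in total RNA. SLC4A2 was called in labelled RNA at 4 h alone, with 16.6 ± 3.89 at 1 h, 27.4 ± 3.33 at 2 h and 29.9 ± 1.45 at 3 h.

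**Figure D3:**
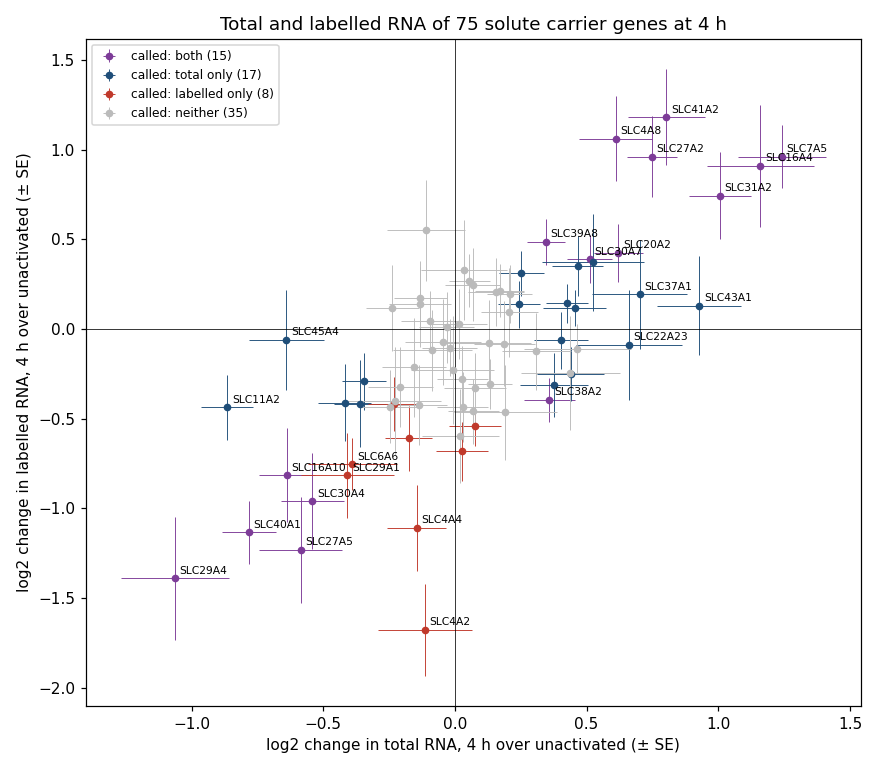
Log2 change from unactivated cells at 4 h in total RNA (x axis) and labelled RNA (y axis) for each of the 75 members, with SE bars, coloured by where the change was called. Points called in both (15) lie in the upper right and lower left, except SLC38A2 in the lower right, while SLC4A2 and SLC4A4 lie low near an x of 0.

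Set side by side at 4 h, 15 members were called in both kinds of RNA, 17 in total RNA alone, 8 in labelled RNA alone and 35 in neither. SLC38A2 was the 1 member called in opposite directions: total RNA was 255 ± 35.1 at 4 h and 199 ± 8.16 in unactivated cells (0.36 ± 0.10, adjusted p 0.0069), and labelled RNA was 395 ± 36.3 and 519 ± 119 (-0.39 ± 0.12, adjusted p 0.013). The SD ranges of these 2 labelled values overlapped, and the labelled call of SLC38A2 at 4 h was not put through the alternative settings. Its labelled RNA had been highest at 2 h, at 788 ± 105. Over all hours and both kinds of RNA, 54 of the 75 members (72%) were called at least once, against 59% of all genes. The 21 never called included 4 zinc carriers, SLC39A1, SLC39A7, SLC30A5 and SLC30A9, and the copper importer SLC31A1.

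Labelled RNA at 4 h was then set against 1 h, again a comparison chosen after seeing the data. Only 2 members were higher at 4 h and 19 were lower, beside 9.39% and 13.3% of all genes. The 19 came from most classes, with 6 of 17 amino acid carriers and 4 of 7 carriers of carboxylates and fatty acids among them. The lactate carrier SLC16A1 had 261 ± 4.43 at 4 h and 498 ± 4.16 at 1 h (-0.93 ± 0.12, adjusted p 1.4e-07). SLC39A14 had 123 ± 14.0 at 4 h and 244 ± 22.8 at 1 h (-0.98 ± 0.16, adjusted p 8.6e-06), and SLC1A5 had 49.2 ± 4.04 and 97.1 ± 15.4 (-0.97 ± 0.20). SLC6A6, the taurine carrier, had 105 ± 12.2 at 4 h and 190 ± 24.7 at 1 h (-0.85 ± 0.16). Higher at 4 h were SLC4A8 (1.39 ± 0.27) and SLC27A2 (1.07 ± 0.25). With every alternative setting the count of members called stayed between 19 and 21, with 17 to 19 of them lower.

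**Figure D4:**
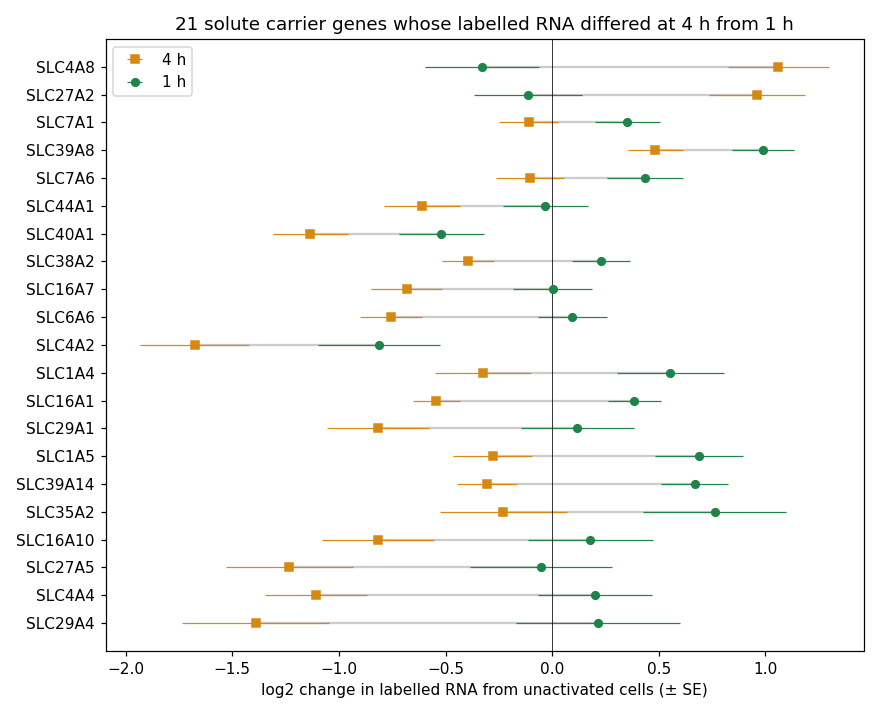
Log2 change in labelled RNA from unactivated cells, with SE bars, at 4 h (orange squares) and 1 h (green circles) for the 21 members that differed between these hours, ordered by the difference. For 19 members the 4 h value lies to the left of the 1 h value, and for SLC4A8 and SLC27A2 to the right.

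How much of each transcript was newly made was read from labelled over total RNA within unactivated cells, as a ratio relative to other genes, since neither labels nor headers tell how the kinds of RNA were scaled to each other. Labelled RNA was the higher for 38 members and the lower for 13, beside 40.6% and 26.9% of all genes, with a median log2 ratio of 0.44 in members and 0.15 over all genes. Centring on the median moved the median of all genes to -0.04 and gave 29 members higher and 18 lower, and quantile normalisation gave 29 and 21. Amino acid carriers stood high in this ratio, with 13 of 17 above and 3 below and a median of 0.94. The phosphate importer SLC20A1 had the highest ratio, with labelled RNA at 531 ± 18.3 and total RNA at 116 ± 2.10 (2.19 ± 0.11, adjusted p 4.7e-18). SLC30A1 had 148 ± 40.02 in labelled RNA and 39.9 ± 0.728 in total RNA (1.86 ± 0.15), the carnitine carrier SLC22A5 had 30.2 ± 10.7 and 7.64 ± 0.695 (1.85 ± 0.24), and SLC38A7 had 34.7 ± 11.9 and 9.18 ± 0.670 (1.81 ± 0.21). At the other end the zinc importer SLC39A6 had 112 ± 10.4 in labelled RNA and 213 ± 14.3 in total RNA (-0.92 ± 0.12). SLC27A2 (-0.82 ± 0.15), SLC30A9 (-0.76 ± 0.12) and SLC29A1 (-0.76 ± 0.19) lay close to it.

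**Figure D5:**
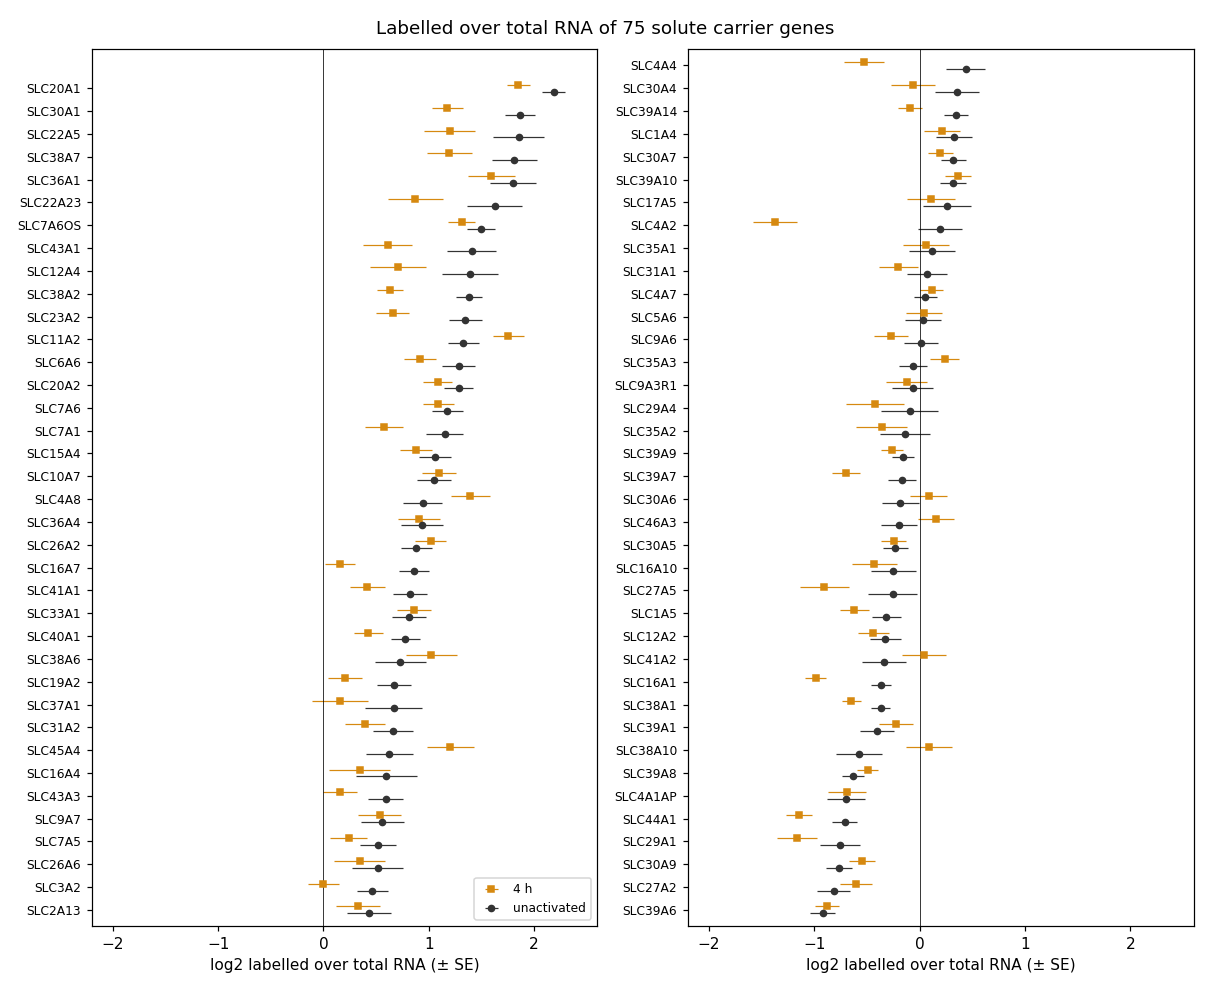
Log2 ratio of labelled to total RNA with SE bars for each of the 75 members at 4 h (orange squares) and in unactivated cells (black circles), ordered by the ratio in unactivated cells. SLC20A1 stands highest at both times, SLC39A6 is lowest in unactivated cells and SLC4A2 at 4 h, and the widest gap to the left at 4 h belongs to SLC4A2.

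The change of this ratio with activation was tested as an interaction of RNA kind and time. At 1 h it rose for SLC39A8 alone among the members (0.86 ± 0.16, adjusted p 0.0023), beside 0.24% of all genes higher and 0.0802% lower. All later calls of members were falls: 2 at 2 h, beside 1.1% of all genes higher and 1.56% lower, 5 at 3 h, beside 0.815% and 1.76%, and 5 at 4 h, beside 0.681% and 2.23%. At 4 h these were SLC4A2 (-1.56 ± 0.30, adjusted p 0.002), SLC4A4 (-0.96 ± 0.27, adjusted p 0.04), SLC38A2 (-0.75 ± 0.17, adjusted p 0.011), SLC16A7 (-0.71 ± 0.20, adjusted p 0.045) and SLC16A1 (-0.62 ± 0.14, adjusted p 0.0082). SLC16A7, a monocarboxylate carrier, had 81.5 ± 0.872 in labelled RNA at 4 h and 131 ± 28.0 in unactivated cells, with 73.1 ± 1.60 and 71.8 ± 2.54 in total RNA. With the variance of the compared groups alone, 0, 1, 1 and 2 members were called at 1, 2, 3 and 4 h, so that the call of SLC39A8 was lost, and SLC4A4, SLC38A2 and SLC16A7 at 4 h reached an adjusted p of 0.093, 0.073 and 0.079 under some setting. Median centring gave 1 higher and 1 lower at 2 h, 1 higher and 2 lower at 3 h and 3 lower at 4 h. Total and labelled RNA of a culture were treated as independent in this test.

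The authors' deposited table gives a decay rate per gene and time on a natural log scale, more negative for faster loss. It is no separate measurement: in every one of the 7330 to 7394 genes with a rate, the rate equalled the log of total RNA less 0.266 times labelled RNA, over total RNA of the hour before, within 1% of that factor. For unactivated cells the divisor was total RNA of the same cells, so that rate restates their ratio of labelled to total RNA. In the authors' deposited table the median rate of the members was -0.415 in unactivated cells and -0.340, -0.405, -0.385 and -0.429 at 1, 2, 3 and 4 h. Over all genes the authors' deposited table has -0.344, then -0.291, -0.326, -0.359 and -0.359. The authors' deposited table has no rate in unactivated cells for 4 members, SLC20A1, SLC22A23, SLC22A5 and SLC38A7, which is 5.33% of members beside 2.07% of all genes. The log does not exist where 0.266 times labelled RNA exceeds total RNA. SLC20A1, SLC22A5 and SLC38A7 were among the members with the highest labelled-to-total ratio there. Among members with a rate there, the slowest in the authors' deposited table was SLC39A6 at -0.151. SLC36A1 (-4.40) and SLC30A1 (-4.30) were the fastest in the authors' deposited table, with deposited SDs of 35.7 and 19.7 that exceed the rates themselves. The T scores in the authors' deposited table, positive where decay slowed against unactivated cells, reached 4.95 for SLC27A2 at 4 h, 4.77 for SLC38A1 at 3 h and 4.73 for SLC1A5 at 2 h. The rates behind the scores of SLC27A2 and SLC1A5 in the authors' deposited table were positive (0.115 and 0.114). A positive rate is no loss at all, so these 2 scores cannot be read as a measured slowing of decay. The lowest T score in the authors' deposited table was -5.07, for SLC46A3, a lysosomal carrier, at 2 h.

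HuR, the product of ELAVL1, is an RNA-binding protein that stabilises many transcripts and whose part in T cell activation the study addresses. In the authors' deposited table, 26 of the 75 members (34.7%) were marked as HuR iCLIP targets, against 19.4% of all genes. The iCLIP targets among the members were also the more abundant ones, with a median total value of 96.4 in unactivated cells, against 28.3 for the other 49, and the part of abundance in this share was not tested. By limma, 11 of these 26 members were higher and 1 lower in total RNA at 4 h (42.3% and 3.85%), beside 28.9% and 11.3% of all 1455 marked genes. Of the other 49 members 11 were higher and 9 lower (22.4% and 18.4%), beside 19.7% and 15.3% of the 6030 unmarked genes. In labelled RNA at 1 h, 6 of the 26 were higher (23.1%), beside 7.08% of all marked genes, and 1 of the 49 (2.04%), beside 3.5% of unmarked genes. These shares were not tested against each other, and marked genes were the more abundant over all genes too, with medians of 109.8 and 53.0 in total RNA of unactivated cells. An ELAVL1 site was listed for 48 of 75 members (64%) in the authors' deposited table, against 61% of the 7124 genes with an entry. A column headed HuR_Any in the authors' deposited table was filled for 45 members, those with HuR LOD scores at 0 h and 4 h. It read yes for 3 (6.67%), SLC16A1, SLC16A7 and SLC30A7, against 11.6% of the 5017 genes where it was filled. These 3 were the members with a positive LOD score at either time. It is no summary of the HuR columns: SLC16A7 was not marked as an iCLIP target, while the marked SLC38A2 and SLC7A5 read no. For SLC16A1 the HuR LOD score in the authors' deposited table was 0.730 at 4 h and -2.58 at 0 h, for SLC16A7 0.551 and -1.51, and for SLC30A7 1.02 and 1.71.

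Other genes of amino acid and zinc control were read from lists chosen for their known roles. In total RNA at 4 h, 21.4% of all genes were higher and 14.5% lower, the background of each 4 h count given here. Of 16 genes of the ATF4 response to amino acid shortage, 8 were measured, and 2 were higher and none lower in total RNA at 4 h, VLDLR (0.55 ± 0.12) and MTHFD2 (0.26 ± 0.08). In labelled RNA none of the 8 was higher and 3 were lower at 1 h (background 4.2% and 2.06%). At 2 h 1 was higher and 1 lower (12.3% and 9.26%), and at 3 h 1 was higher and none lower (13.8% and 11.4%). At 4 h none was higher and 2 were lower in labelled RNA (13.7% and 13.8%). Among 17 measured genes of mTORC1 and its lysosomal anchor, which sense amino acids, 3 were higher and none lower, RRAGD (0.41 ± 0.09), RRAGA (0.34 ± 0.11) and LAMTOR3 (0.30 ± 0.10). MTF1, the factor that answers to zinc, was the 1 measured gene of 10 in its list, with 21.4 ± 2.02 at 4 h and 18.9 ± 1.47 in unactivated cells (0.17 ± 0.16, not called). In total RNA MTF1 was called higher at 3 h alone (0.48). Of 13 measured partners and regulators of carriers, 1 was higher, the ubiquitin ligase NEDD4 (0.89 ± 0.09, adjusted p 4.8e-07), and 2 were lower, ATP1B3 of the sodium pump (-0.28 ± 0.10) and the kinase OXSR1 (-0.26 ± 0.09). BSG, the partner of SLC16A1 at the membrane, had 95.6 ± 18.2 at 4 h and 97.6 ± 9.27 in unactivated cells and was not called (-0.03 ± 0.12). For comparison, 4 of the 24 SLC25A genes were higher and 7 lower at 4 h, and 1 of 12 ABC transporter genes was higher and 2 were lower.

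By RPKM, the authors' length-scaled read density averaged over total RNA, the members with the highest levels were SLC38A2 (471), SLC39A8 (457), SLC38A1 (345), SLC16A1 (325), SLC30A9 (254) and SLC3A2 (209). The order is uncertain because the length implied by these values was short of the annotated transcript. For SLC38A2 it was 593 bases, 12.1% of the longest transcript in GENCODE v29, and over the members the median was 26.2%, from 6.02% to 98.7%.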

How the data were processed

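Total and 4-thiouridine-labelled RNA of Jurkat cells was sequenced from libraries made with ScriptSeq after RiboZero depletion, per the labels' protocols. TopHat2, HTSeq, edgeR and hg19 are named without versions, per the submitters' processing notes. The authors deposited 1 table of 7485 genes, which gives per group a mean normalised signal and its SD, per the file headers, and no value of a single sample. The deposited signal sums to between 913919 and 1037463 per group. Further deposited columns are an RPKM value, the authors' decay rates (natural log, as the deposited values show, with another column for their SD), T scores and HuR LOD scores. Neither labels nor headers tell how these were made or how labelled was scaled to total RNA.

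From the deposited means and SDs, log2(value + 1) and its SD to first order were computed. The variance was pooled over 5 groups (9 degrees of freedom) or, for labelled over total RNA, 10 groups (18 degrees of freedom), and moderated with limma 3.58.1 in R 4.3.3, with trend and robust options. P-values were adjusted by Benjamini-Hochberg over all 7485 genes at 0.05. Fold changes of low genes are understated on this scale. The code was tested on simulated data. The members, lists, classes by family number and tests were chosen with earlier results of these data known. Genes named were those with the largest called changes (8 each way in total RNA at 4 h, 6 in labelled RNA at 1 h and 4 h, 4 for the ratios), the 6 highest in RPKM and 16 carriers known from T cells, of which 13 were measured. The others are not analysed here. A few others are named from counts after their values were seen.

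In total RNA at 1 h, both values of all 3166 genes under 50 were whole multiples of a step within 0.02 of a read, which puts those libraries at 1.12e+07 and 1.11e+07 reads. The depth of the others is unknown. The alternatives were a pseudocount of 0.5 or 5, a mean of at least 10, the variance of the compared groups alone, a constant prior variance, median centring, quantile normalisation and the linear scale.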

Additional observations from a re-analysis of the deposited data

Results flagged for a closer look

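The change in labelled RNA differed from the change in total RNA, by the interaction of RNA kind and time in limma, for 9 members at 13 points of the course. In each case the value is the change of the log2 labelled-to-total ratio from unactivated cells. At 1 h it was 0.86 for SLC39A8, the zinc and manganese importer whose labelled RNA was called higher at 1 h and total RNA from 2 h. At 2 h it was -1.09 for the iron exporter SLC40A1 and -0.64 for the choline carrier SLC44A1. The values at 3 h were -1.33 for SLC4A4, -0.90 for SLC30A1, -0.77 for SLC16A7, -0.70 for SLC40A1 and -0.68 for SLC38A2. At 4 h they were -1.56 for SLC4A2, -0.96 for SLC4A4, -0.75 for SLC38A2, -0.71 for SLC16A7 and -0.62 for SLC16A1. SLC4A2, SLC4A4, SLC16A7 and SLC16A1 had no call in total RNA at that hour.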

How the results depend on the processing

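Of the 15 counts of members, every one kept to within 1.5 times its value with a pseudocount of 0.5 and with the low-value filter. The exceptions under other settings were these. With the variance of the compared groups alone, the count was 2 in labelled RNA at 1 h (8 as reported), 0, 1, 1 and 2 for the ratio change at 1, 2, 3 and 4 h (1, 2, 5 and 5 as reported), and 1 for total RNA at 4 h against 3 h (5 as reported). Quantile normalisation gave 5 in labelled RNA at 1 h. For the ratio change, the linear scale gave 3 at 1 h and 6 at 2 h, a pseudocount of 5 and a constant prior variance each gave 4 at 2 h, and median centring gave 3 at 3 h and 3 at 4 h. The cause of these shifts was not tested. Among 61 values of named genes, SLC1A5 in total RNA at 4 h changed sign with median centring (-0.017) and quantile normalisation (-0.021), and SLC16A1 (-0.028) and SLC30A9 (-0.0068) with quantile normalisation, and none of these was called under any setting. Calls were lost for 9 of the 61 with the variance of the compared groups alone, 5 on the linear scale, 4 with a constant prior, 2 each with the centring and quantile settings and 1 with a pseudocount of 5. No paired analysis was possible because the table gives group means and SDs only, and leaving out single samples could not be run for the same reason. The reads behind a value are known for total RNA at 1 h alone. How far counting noise limits low members such as SLC16A4 and SLC29A4 in other groups is thus unknown.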
